A study of Mus musculus with 17 samples.

Results

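The smooth muscle contractile genes form the actin and myosin machinery with which the cells around arteries and arterioles contract, and 8 of them were examined: Acta2, Tagln, Myl9, Myh11, Cnn1, Tpm2, Mylk and Cald1. They were found by their symbols in each deposited table. All 8 were among the 20328 genes of the RNA-seq table and among the 26650 rows of the scRNA-seq table. Myl9 and Cald1 had 4 of the 11424 regions of H3K27ac, and Acta2 had 2 of the 3582 regions of ATAC-seq. These genes were chosen with results of the same data already known, and which measured values they were selected on is not recorded, so every comparison is counted as used. Their differences between groups are given below as a description, without a p-value, and the number of them that passed a threshold is set beside the share of all genes that did.

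The samples were brain tissue of wild-type ICR mice, female and 8 weeks old when operated. The 6-OHDA-induced PD model received the neurotoxin 6-hydroxydopamine in the substantia nigra of 1 hemisphere at 10 µg/µl and saline afterwards. The labels name sham as the control without saying what it received, and name the tissue only as brain. The NDST3-treated PD model, here the NDST3-treated group, received the same lesion and, 5 days later, 2 µl of an AAV9 vector that carries human NDST3, a heparan sulfate N-deacetylase and N-sulfotransferase, under the CMV promoter, which is not restricted to 1 cell type. RNA-seq had 2 sham libraries, 1 library of the 6-OHDA-induced PD model and 2 of the NDST3-treated group, H3K27ac had 2 libraries per group that share 1 column, and ATAC-seq had 1 library per group. The scRNA-seq table holds 1 library of each lesioned group, and sham cells were not analysed here. The labels do not say whether the libraries of a group came from separate mice, so their spread may be technical.

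In a smooth muscle cell, a rise in calcium activates myosin light chain kinase (Mylk), which phosphorylates the regulatory light chain (Myl9) of smooth muscle myosin (heavy chain, Myh11) and lets it pull on filaments of alpha smooth muscle actin (Acta2). Tropomyosin (Tpm2), caldesmon (Cald1), calponin (Cnn1) and transgelin (Tagln, also SM22) lie on the actin filament. In the brain these genes are known from the mural cells of vessels, the smooth muscle cells and some pericytes, and Acta2 and Tagln are also known from myofibroblasts in scars. Many of the promoters are known to hold a CArG box, the site bound by serum response factor (Srf) with its partners myocardin (Myocd) and the myocardin-related factors (Mrtfa, Mrtfb).

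In GRCm38 Acta2 lies at chr19:34240336-34255585, Tagln at chr9:45929628-45936058, Cnn1 at chr9:22099221-22109221 and Cald1 at chr6:34598495-34775469. Myh11 lies at chr16:14194527-14292188, Mylk on the same chromosome at chr16:34745199-35002436, Tpm2 at chr4:43513726-43523583 and Myl9 at chr2:156775408-156781657. RefSeq promoters of GRCm38.p6 were at hand for 6 of the 8 genes, 7 promoters in all, and Tagln and Myh11 were not listed. The 250 bases before each start were searched for the CArG box, in which CC and GG flank 6 bases of A or T, and for a looser form that allows 1 C or G among those 6. Both forms read the same on either strand, and every strict match is also a looser one. The promoters of Myl9 and Acta2 held matches, and those of Tpm2, Cald1, Cnn1 and Mylk held none in this window. The strict form was found in 1.47% of all 32851 promoters and the looser form in 8.59%. The stretches with matches are shown because Myl9 and Acta2 are also the members with the regions described further on, next to Cald1. Matches are in capitals, and every stretch is written 5′ to 3′ on the strand of the gene.
Myl9, chr2:156775214-156775407, plus strand: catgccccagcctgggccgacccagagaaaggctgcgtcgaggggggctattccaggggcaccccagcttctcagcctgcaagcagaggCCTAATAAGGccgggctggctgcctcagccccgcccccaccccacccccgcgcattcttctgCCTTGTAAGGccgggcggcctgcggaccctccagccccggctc
Acta2, chr19:34255438-34255467, minus strand: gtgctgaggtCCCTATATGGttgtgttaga
Acta2, chr19:34255388-34255417, minus strand: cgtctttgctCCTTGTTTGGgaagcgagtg

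The Myl9 stretch ends before the first annotated exon, and its strict match CCTAATAAGG begins at base -161 and its looser match CCTTGTAAGG at base -99 from the start used for the promoter. In Acta2, the looser matches CCCTATATGG and CCTTGTTTGG begin at bases -84 and -34 from the start of a shorter transcript, within the first exon of a longer one. Among the related genes of other cells, described below, 5 of 21 promoters held the strict form.

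The first comparison asked what the lesion did to the contractile genes in bulk brain tissue. In the single library of the 6-OHDA-induced PD model, 6 of the 8 genes lay above both sham libraries and 2 lay below them, where 45.3% and 44.3% of all genes tested did. Tagln had by far the largest difference, at 11.7-fold. The values below are CPM, the counts scaled by library size, and the log2 fold changes come from the edgeR fit over all 5 libraries, each with its standard error. The plot of CPM by library shows every value.

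**Figure D1:**
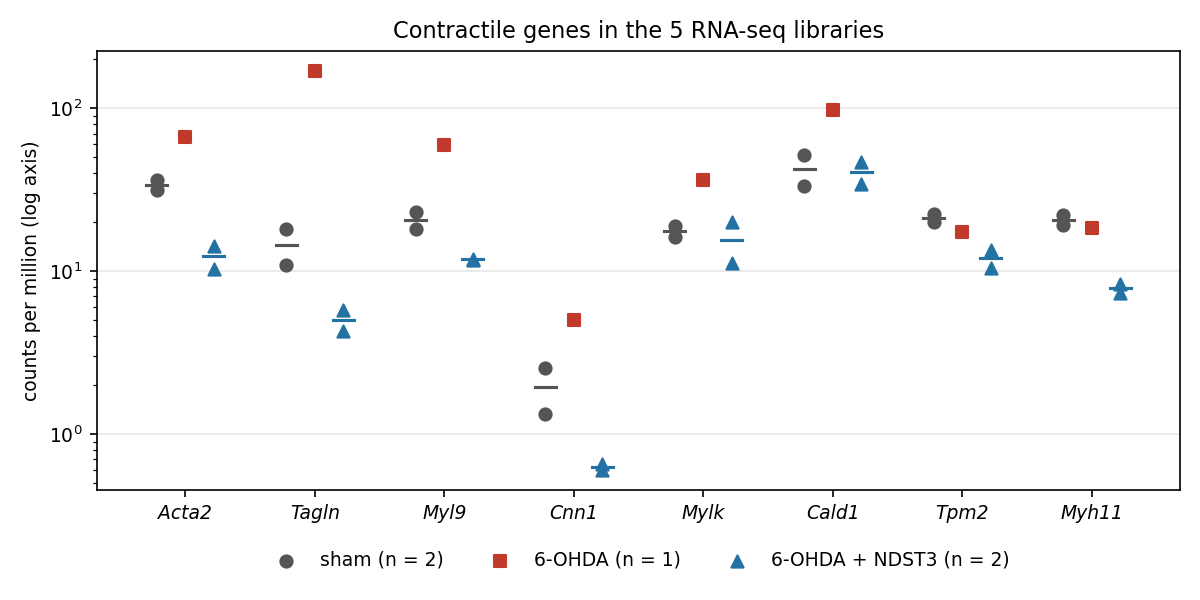
CPM (log axis) of the 8 contractile genes in each RNA-seq library, with circles for sham (n = 2), squares for 6-OHDA (n = 1) and triangles for 6-OHDA with NDST3 (n = 2), and a dash for the mean of 2 libraries. Tagln reaches 170.1 in the 6-OHDA library, and for 6 genes the NDST3-treated libraries lie below both sham libraries.

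Among the actin-filament genes, Tagln was at 18.1 and 10.9 CPM in sham and at 170.1 in the 6-OHDA library, a log2 fold change of 3.55 ± 0.33 (SE). Tagln encodes an actin-bundling protein of the calponin family. Its 6-OHDA value was far outside the sham values. Acta2 was at 36.3 and 31.7 CPM in sham and at 66.7 in the 6-OHDA library, a log2 fold change of 0.97 ± 0.22. Cald1 was at 51.5 and 33.4 CPM in sham and at 97.2 in the 6-OHDA library, a log2 fold change of 1.20 ± 0.30. Caldesmon has a heavy form in smooth muscle and a light form in many other cells, which a count per gene cannot separate. Cnn1 was the least abundant gene, at 2.54 and 1.33 CPM in sham and 5.03 in the 6-OHDA library, a log2 fold change of 1.38 ± 0.45. Tpm2 was at 22.48 and 19.99 CPM in sham and at 17.3 in the 6-OHDA library, a log2 fold change of -0.30 ± 0.21. It was the only actin-filament gene of the 5 whose 6-OHDA value lay under both sham values.

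Among the myosin genes, Myl9 was at 22.93 and 18.05 CPM in sham and at 59.3 in the 6-OHDA library, a log2 fold change of 1.53 ± 0.17. Mylk, its kinase, was at 19.0 and 16.1 CPM in sham and at 36.2 in the 6-OHDA library, a log2 fold change of 1.04 ± 0.35. Myh11, whose product is the myosin heavy chain most specific to smooth muscle, was at 22.04 and 19.09 CPM in sham and at 18.5 in the 6-OHDA library, a log2 fold change of -0.15 ± 0.17. The light chain and its kinase were thus above both sham libraries where the heavy chain was slightly below them, and the heavy chain's difference was smaller than its standard error.

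The median log2 fold change of the 8 genes was 1.12, against a median of -0.0025 over all 19300 genes tested. By an adjusted p under 0.05, 4 of the 8 were called higher (Acta2, Cald1, Tagln and Myl9) and none lower, where 18.8% of all genes tested were called higher and 17.1% lower. Since the choice of the genes may have used this contrast, nothing is read from that count. The 6-OHDA group had 1 library, which the fit assumes to vary like the others. Without either sham library no gene of the table was called in this comparison, and the median of the 8 genes was then 0.92 or 1.35. In bulk tissue, fewer cells of a type and less RNA per cell cannot be told apart.

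The second comparison asked how the NDST3-treated group differed from the 6-OHDA-induced PD model. It shares the single 6-OHDA library with the first, so a chance excess in that library would raise 1 difference and lower the other. All 8 genes lay lower in both NDST3-treated libraries than in the 6-OHDA library, and over all genes tested 43.2% did. The differences ranged from 1.44-fold for Tpm2 to 33.8-fold for Tagln. Tagln was at 5.79 and 4.27 CPM in the NDST3-treated libraries, a log2 fold change of -5.08 ± 0.35 against the 6-OHDA library. Cnn1, at 0.605 and 0.653 CPM, had a log2 fold change of -2.996 ± 0.459. It rests on 36 and 39 counts in the NDST3-treated libraries. Acta2 was at 10.3 and 14.3 CPM, with a log2 fold change of -2.44 ± 0.22, and Myl9 was at 11.7 and 11.9 CPM, with a log2 fold change of -2.33 ± 0.17.

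The other 4 genes showed smaller differences. Cald1 was at 34.3 and 47.0 CPM in the NDST3-treated libraries, with a log2 fold change of -1.26 ± 0.30 against the 6-OHDA library. Myh11 was at 7.37 and 8.31 CPM, with a log2 fold change of -1.24 ± 0.17. Mylk was at 11.2 and 19.9 CPM, with a log2 fold change of -1.22 ± 0.35, and the ratio of its 2 values was the largest of the 8 genes. Tpm2 was at 13.6 and 10.4 CPM, with a log2 fold change of -0.53 ± 0.21. The median of the 8 genes was -1.79. By adjusted p, 5 of the 8 were called lower (Acta2, Cnn1, Tagln, Myh11 and Myl9), where 6.59% of all genes tested were, with 9.06% called higher, and nothing is read from that count for the same reason as above. Without NDST3-treated replicate 1, or without either sham library, none of the 8 was called. Without replicate 2, 7 were.

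The third comparison set the NDST3-treated group against sham and did not use the 6-OHDA library in the difference itself. Acta2, Cnn1, Tpm2, Tagln, Myh11 and Myl9 were lower in both NDST3-treated libraries than in both sham libraries, 6 of 8, where 22.4% of all genes tested showed that separation. Both Cald1 values lay within the range of sham, and Mylk had 1 value below and 1 above both sham values. Cnn1 differed most, with a log2 fold change of -1.61 ± 0.40, followed by Tagln at -1.53 ± 0.29, Acta2 at -1.46 ± 0.19 and Myh11 at -1.39 ± 0.14. Tpm2 had a log2 fold change of -0.82 ± 0.17 and Myl9 of -0.79 ± 0.15. The values of Cald1 (-0.06 ± 0.26) and Mylk (-0.17 ± 0.29) were smaller than their standard errors. The median over the 8 genes was -1.11, against 0.0099 over all genes tested.

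By edgeR's adjusted p none of the 8 was called in the third comparison, where 0% of all genes tested were called lower. DESeq2 called 6 of the 8 lower, where it called 1.02% of all genes lower. By a change of 2-fold or more and an unadjusted p under 0.05, 4 were lower, where 1.08% of all genes were. Since the choice of the genes may have used this contrast too, nothing is read from these counts or from the number separated from sham. For Myh11 and Tpm2 the 3 groups lay in 1 order, with sham highest, the 6-OHDA library next and the NDST3-treated libraries lowest. For the other 6 genes the 6-OHDA library was the highest of the 5. The plot of the fitted differences sets the 3 comparisons side by side.

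**Figure D2:**
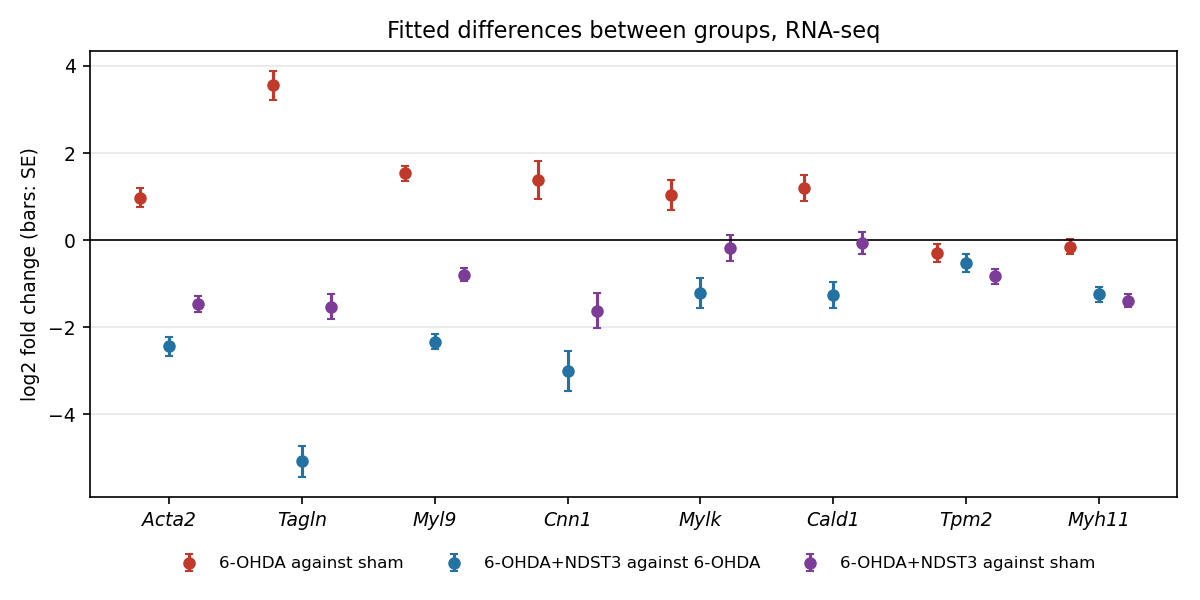
Log2 fold changes of the 8 contractile genes in the 3 RNA-seq comparisons, as points with bars for the standard error of the fit (2 sham, 1 6-OHDA and 2 NDST3-treated libraries). Tagln has the widest span, from 3.55 to -5.08, and in the comparison with sham the points of Cald1 and Mylk lie near 0.

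Per length of gene (FPKM, fragments scaled by gene length and library size), Myl9 was the most abundant of the 8 in sham, at 20.1 and 15.0. Acta2 followed at 13.6 and 11.3 FPKM, then Cald1 at 11.4 and 7.04, Tagln at 10.9 and 6.24 and Tpm2 at 8.55 and 6.79. The sham values overlap between Acta2 and Cald1 and among Cald1, Tagln and Tpm2, so these neighbours are not resolved in sham. Mylk (3.48 and 2.82 FPKM), Myh11 (2.90 and 2.45) and Cnn1 (1.29 and 0.610) were the lowest. In the 6-OHDA library Tagln led at 101 FPKM, ahead of Myl9 at 51.4. In the NDST3-treated libraries Myl9 (9.95 and 10.5 FPKM) and Cald1 (7.16 and 10.5) led, and Tagln was at 3.37 and 2.59. Summed over the 8 genes, the FPKM was 72.2 and 52.3 in sham, 218.2 in the 6-OHDA library, and the NDST3-treated libraries had 31.8 and 38.2.

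Some of the 8 have close relatives in nearly every cell, and reads from shared stretches could be counted for either gene. Over the 31-base stretches of their annotated transcripts (GENCODE M21), the share also found in a transcript of another gene was highest for Acta2, at 1.39%, most of it shared with Actg1 and its copies. It was 0.905% for Myh11, shared with the nonmuscle heavy chains, and 0 for Tagln and Cnn1.

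The related genes of other cells build actin and myosin filaments outside smooth muscle, and some of them, such as Tpm1, in smooth muscle as well. They and the lists that follow were chosen with results of these data known, and the genes named from them are mostly those with the largest differences, so their adjusted p-values, over all genes tested, describe these libraries and are no independent evidence. Of 18 tested, edgeR's quasi-likelihood test called 10 higher and 4 lower in the 6-OHDA library against sham. Over all genes tested, it called 18.8% higher and 17.1% lower. Tagln2, the form of transgelin found in other cells, was at 21.6 and 14.0 CPM in sham and at 106.0 in the 6-OHDA library, a log2 fold change of 2.57 ± 0.35 (edgeR adjusted p = 0.00916). Cnn2, a calponin also found in nonmuscle cells, had a log2 fold change of 2.31 ± 0.39 (edgeR adjusted p = 0.0137), larger than the 1.38 of Cnn1. Cnn3, a further calponin of nonmuscle cells, had 1.98 ± 0.25. Tpm1, the other main tropomyosin of muscle, was at 122.3 and 123.7 CPM in sham and at 128.2 in the 6-OHDA library and was not called. Actb, the general cytoplasmic actin, rose with a log2 fold change of 1.46 ± 0.24 (edgeR adjusted p = 0.0124), and Myh9, a nonmuscle myosin heavy chain, rose with 1.35 ± 0.20 (edgeR adjusted p = 0.0106). In the NDST3-treated group, 8 of the 18 were called lower than in the 6-OHDA library and 2 higher, where 6.59% and 9.06% of all genes were. None of the 18 was called against sham, where edgeR called 0% of all genes. The median log2 fold change of the 18 against sham was 0.05, where that of the 8 contractile genes was -1.11. The 18 are not free of smooth muscle genes, so these medians do not set smooth muscle against other cells.

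Other smooth muscle genes, which hold further filament, membrane and regulatory proteins of that cell type, did not all move with the 8. Of 23 tested, 8 were called higher and 1 lower in the 6-OHDA library against sham, where 18.8% and 17.1% of all genes were. The median log2 fold change of the 23 was 0.81. Flna, an actin crosslinker also present in many other cells, was at 82.5 and 51.5 CPM in sham and at 289.9 in the 6-OHDA library (log2 fold change 2.11 ± 0.28, edgeR adjusted p = 0.00912). Aoc3, an amine oxidase of vessel walls, rose with 1.36 ± 0.32 (edgeR adjusted p = 0.0294). Nrip2 was the gene called lower, with a log2 fold change of -1.89 ± 0.13 (edgeR adjusted p = 0.00823). In the NDST3-treated group its log2 fold change against the 6-OHDA library was 1.77 ± 0.13. It was at 24.5 FPKM in each sham library, above the 13.6 and 11.3 of Acta2. Which cells gave that level was not tested, so its fall is not read as one of smooth muscle. Csrp1, a LIM protein of smooth muscle and glia, was at 459.2 and 427.3 CPM in sham and at 433.3 in the 6-OHDA library and was not called. Against sham, the NDST3-treated median of this list was -0.09, and 8 of the 23 lay below sham in every library, where 22.4% of all genes did.

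The genes of contraction signalling, the channels, kinases, phosphatases and receptors that set calcium and myosin phosphorylation, were called in both directions. In the 6-OHDA library 3 of 18 were called higher and 5 lower than in sham, where 18.8% and 17.1% of all genes were. Ednra, the endothelin receptor of smooth muscle, rose with a log2 fold change of 1.21 ± 0.20 (edgeR adjusted p = 0.0127). Gucy1a1 and Gucy1b1, the subunits of the nitric oxide receptor, fell with -1.17 ± 0.12 and -1.20 ± 0.11 (edgeR adjusted p = 0.00823 for each). Both subunits are also known from neurons. Against the 6-OHDA library, 4 of the list were called higher and 4 lower in the NDST3-treated group, where 9.06% and 6.59% of all genes were.

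Among the 22 regulators of the contractile genes that were tested, 11 were called higher and none lower in the 6-OHDA library. Over all genes tested, 18.8% were called higher and 17.1% lower. The largest differences were in the TGF-beta pathway, which is known to raise contractile gene expression. Tgfb1, the ligand, was at 11.9 and 7.65 CPM in sham and at 78.7 in the 6-OHDA library (log2 fold change 3.01 ± 0.38, edgeR adjusted p = 0.00876). Its receptors Tgfbr1 and Tgfbr2 rose with 2.54 ± 0.33 and 2.21 ± 0.30 (edgeR adjusted p = 0.00911 and 0.00922). Microglia and astrocytes express these genes as well. Hey1 and Mrtfb, the most abundant of the list among those not called, had log2 fold changes of 0.17 ± 0.10 and -0.44 ± 0.21. Srf, at 27.4 and 29.7 CPM in sham and 30.2 in the 6-OHDA library, had 0.08 ± 0.13 and was not called. In the NDST3-treated group none of the 22 was called against sham, where edgeR called 0% of all genes. Their log2 fold changes against sham were above 0 for 12 genes and below 0 for 10. Tgfb1, at 24.8 and 41.5 CPM, had 1.77 ± 0.33, and Tgfbr1 and Tgfbr2 had 1.48 ± 0.29 and 1.09 ± 0.26. Against the 6-OHDA library, 4 of the 22 were called lower and none higher, where 6.59% and 9.06% of all genes were. Myocd, the coactivator most specific to smooth muscle, was among the 4, with a log2 fold change of -2.19 ± 0.49 (edgeR adjusted p = 0.0472). It rests on few reads, with 23 and 27 counts in sham, 36 in the 6-OHDA library and 7 and 11 after NDST3, and without either sham library no gene of the table was called in this comparison.

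**Figure D3:**
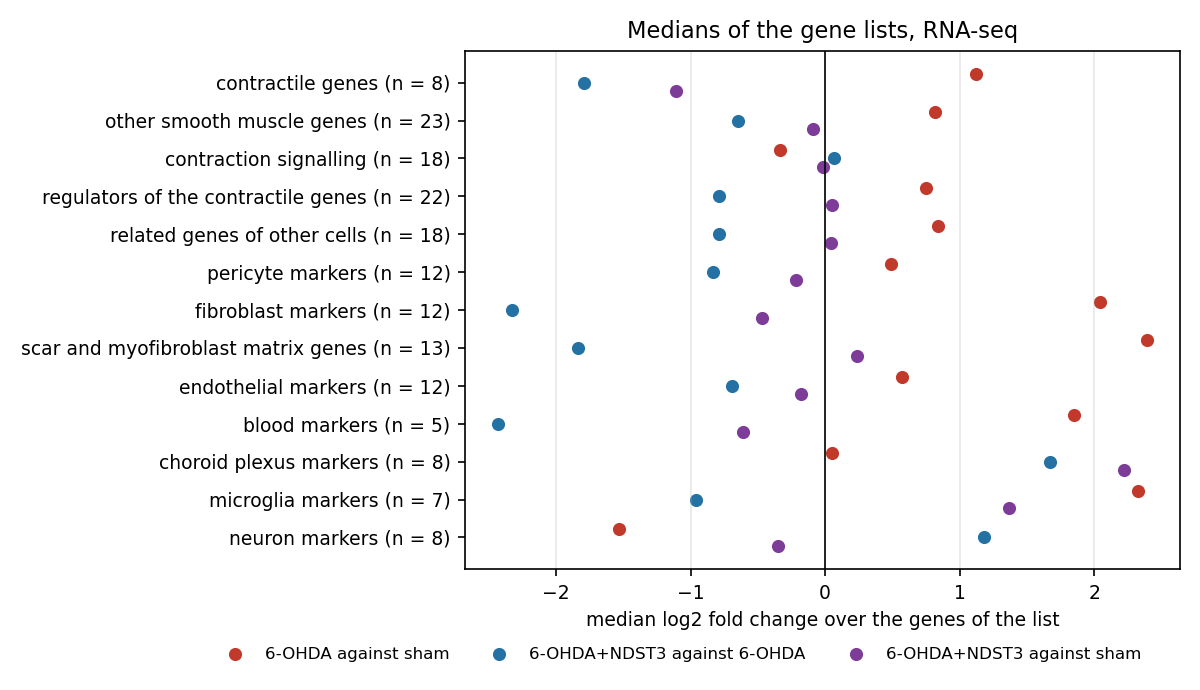
Median log2 fold change over the genes of each list in the 3 RNA-seq comparisons (n, genes tested). Against sham, the NDST3-treated median is -1.11 for the contractile genes and -0.09 for other smooth muscle genes, and blood and fibroblast markers lie above 0 in the 6-OHDA library and below 0 in the second comparison.

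Markers of other cell types moved in the same libraries. All 5 blood markers, the globins and the heme enzyme Alas2, were called higher in the 6-OHDA library against sham and lower in the NDST3-treated libraries than in the 6-OHDA library, and their summed level was 1138 and 614.0 FPKM in sham, 2847 after 6-OHDA, and 535.9 and 565.2 after NDST3. Of 12 fibroblast markers, 9 were called higher in the 6-OHDA library and 8 lower in the second comparison, with summed levels of 434.8 and 241.2 FPKM, then 1039, then 263.8 and 275.4. Of 13 scar matrix genes other than Acta2, 12 were called higher and 9 then lower, with medians of 2.39 and -1.83. Pericyte markers were called higher in 4 of 12 and lower in 2 of 12, and endothelial markers higher in 5 of 12 and lower in 4 of 12. Over all genes tested, 18.8% were called higher in the first comparison and 6.59% lower in the second. The skeletal muscle markers, 8 genes of another kind of muscle, summed to 3.31 to 4.54 FPKM across the 5 libraries. The 8 neuron markers were all called lower in the 6-OHDA library, where 17.1% of all genes were. The 7 microglia markers tested were all called higher. The smallest count of any gene in the RNA-seq table was 1, so no marker found there could be at 0. Some markers were absent from it: it held 7 of 8 microglia and 8 of 10 skeletal muscle markers. The part of these cell types in the differences of the contractile genes was not tested.

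Against sham, these lists differed among themselves in the NDST3-treated group. The median log2 fold change was -0.22 for pericyte markers, -0.47 for fibroblast markers, -0.61 for blood markers and -0.18 for endothelial markers, against -1.11 for the contractile genes. It was -0.35 for neuron markers, and it was above 0 for scar matrix genes (0.24) and microglia markers (1.37). Lower values than sham in every library were found for 6 of 12 pericyte, 2 of 12 fibroblast, 5 of 5 blood and 5 of 12 endothelial markers. Over all genes tested, 22.4% showed that separation. NDST3-treated replicate 2 stood apart by its choroid plexus markers, which summed to 858.8 FPKM against 9.41 to 32.5 in the other 4 libraries. Without it, the median log2 fold change of the contractile genes against the 6-OHDA library was -2.05 in place of -1.79.

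In the scRNA-seq table the values are means per cluster and group, on a natural-log scale, for 9 clusters numbered as in the table. With 1 library per group there is no test, and differences are given in natural-log units. All 8 genes had their highest mean in cluster 5, as had 10.3% of the genes above 0.1 in some cluster. Acta2 was at 3.73 there after 6-OHDA and at 3.95 after NDST3. Tagln was at 3.36 and 3.49, Myl9 at 3.29 and 3.33, and Cald1 at 3.45 and 3.36. Tpm2 (2.84 and 2.82), Myh11 (2.68 and 2.80) and Mylk (2.39 and 2.49) were somewhat lower, and Cnn1 was lowest at 0.97 and 0.84. Among all genes of the cluster, Acta2 ranked 8 and 6 in the 2 groups, and Cnn1 ranked 595 and 763.

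**Figure D4:**
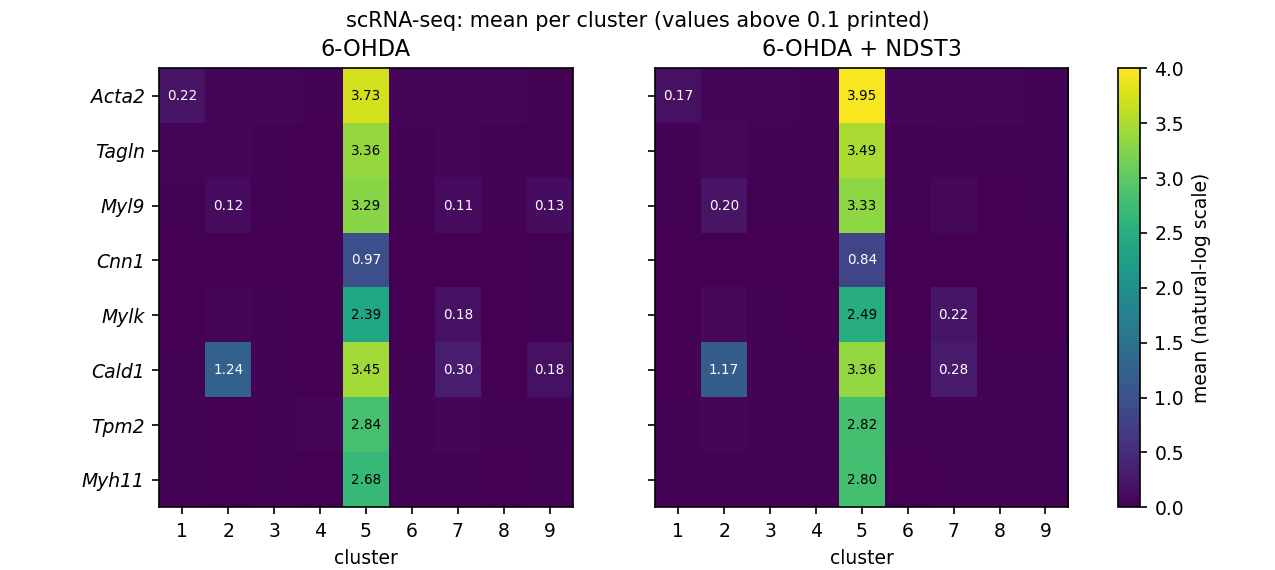
Mean level (natural-log scale, color) of the 8 contractile genes in the 9 scRNA-seq clusters, for 6-OHDA (left) and 6-OHDA with NDST3 (right), 1 library each, with values above 0.1 printed. Cluster 5 stands out for every gene, and Cald1 has a further level of 1.24 and 1.17 in cluster 2.

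Cluster 5 held the markers of more than 1 kind of mural cell. Beside the 8 genes, Lmod1 (1.30 and 1.32) and Des (1.44 and 1.42), further smooth muscle markers, had their highest means there, and so had 23 of the 24 other smooth muscle genes and all 12 pericyte markers, led by Rgs5 at 2.15 and 2.14. Of the 12 fibroblast markers 4 were highest in cluster 5, among them Mgp at 2.60 and 2.28, and 8 in cluster 2. None of the 12 endothelial markers was highest in cluster 5, and all were in cluster 7. Cluster 5 thus carried the markers of smooth muscle cells and of pericytes, and it is called by its number here. The authors labelled their cluster 5 as fibroblasts, by Acta2, Dmd, Dstn, Col3a1 and Col1a2, so a contractile gene was among its naming markers. Of these, Col1a2 was highest in cluster 5 (0.76 and 0.64) and Col3a1 in cluster 2.

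Outside cluster 5, 8 of 64 combinations of gene and cluster passed 0.1 in either group. Cald1 accounted for 3, in clusters 2 (1.24 and 1.17), 7 (0.30 and 0.28) and 9 (0.18 and 0.02). Myl9 accounted for 3 more in the same clusters, with 0.12 and 0.20 in cluster 2. Mylk reached 0.18 and 0.22 in the endothelial-marker cluster 7, and Acta2 reached 0.22 and 0.17 in cluster 1, where all 6 neutrophil markers were highest. Tagln, Myh11, Tpm2 and Cnn1 stayed under 0.1 in all 8 other clusters. Whether these low levels are expression or free RNA in the droplets was not tested.

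The mean over the 8 genes in cluster 5 was 2.84 after 6-OHDA alone and 2.88 after NDST3. The NDST3-treated mean was higher for 5 genes and lower for 3, and over the 582 genes of the cluster with a mean of at least 1 it was higher for 45%. Acta2 differed most, by 0.23, above the 95th percentile of those genes (0.17). Tagln (0.13), Myh11 (0.12), Mylk (0.10) and Myl9 (0.03) were also higher, within that range, and Tpm2 (-0.03), Cald1 (-0.10) and Cnn1 (-0.13) were lower. In bulk RNA-seq, by contrast, all 8 lay lower in the NDST3-treated libraries than in the 6-OHDA library. The table gives a level per cell and no number of cells, and the libraries of the 2 methods are separate.

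The related genes of other cells were spread over the clusters, with 5 of 20 highest in cluster 5. Actb was at 3.87 and 3.79 in cluster 5 and slightly higher, at 3.99 and 3.81, in cluster 1. Tpm1 was highest in cluster 5, at 2.83 and 2.65. Among the regulators, Myocd was highest in cluster 5 at 0.60 and 0.70, and Notch3, a receptor of vascular smooth muscle, was at 1.66 and 1.79, while Tgfb1, Tgfbr1 and Smad3 were highest in cluster 6, where 7 of 8 microglia markers were also highest.

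Over the 18 means (9 clusters in 2 groups), 4724 genes with a highest mean of at least 0.5 were ranked by Pearson's r with the mean of the contractile genes. The r is a description, over points that share 2 libraries. The mean of the contractile genes was high only in cluster 5 (2.84 and 2.88), so the points of that cluster largely set r. A gene confined to cluster 5 comes near 1 whatever its function, and the order among the 10 is not read. The 10 closest genes, all at r of 0.999 or more after rounding, were Pde3a, Parm1, Mrvi1, Hspb2, Rgs4, Pdgfrb, Npy1r, Nrip2, Aspn and Tbx2. Pde3a, a phosphodiesterase of vascular smooth muscle, was at 2.08 and 2.17 in cluster 5 and at most 0.13 elsewhere. Pdgfrb, the receptor that marks mural cells, was at 1.13 and 1.22 and at most 0.11 elsewhere. Nrip2, which fell in bulk tissue of the 6-OHDA-induced PD model, was at 0.81 and 0.80 in cluster 5. Acta2, less abundant than Nrip2 in bulk sham tissue, was at 3.73 and 3.95 there, and the source of the bulk Nrip2 reads was not tested.

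H3K27ac, a histone mark of active promoters and enhancers, was deposited as a signal per 100-base region within 1000 bases of a transcript start. Each value is 1 per group, so there is no error to set beside it. Distances from the start are those of the table. Its coordinates do not match GRCm38: of regions with a RefSeq gene, the listed distance fitted a GRCm38 transcript start within 5 bases in 3.45% for H3K27ac and 9.43% for ATAC-seq, so no sequence was read from them. Moreover, none of the 11424 regions had a lower signal in the NDST3-treated group than in the 6-OHDA-induced PD model, so the table holds 1 direction of that comparison, and a contractile gene could not have been lower in it.

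The Myl9 region, at -473 bases from the start, had a signal of 6.5 in sham, 2.5 after 6-OHDA and 6.0 after NDST3. It was 2.14-fold lower after 6-OHDA than in sham after adding 1, where 4.52% of regions were at least 2-fold lower. Myl9 RNA was 2.90-fold higher in that group. The signal is low: 1.46% of regions had less in the 6-OHDA-induced PD model. Cald1 had 3 regions with different patterns. The region at -751 bases was at 7.75 in sham, then at 21.6 and 26.58, 2.58-fold higher in the 6-OHDA-induced PD model, where 7.77% of regions were at least 2-fold higher. The region at -83 bases was at 15.09, 15.9 and 31.8, in the order sham, 6-OHDA and NDST3, and the region at -148 bases at 19.62, 15.9 and 15.9. The 3 share a gene, and the starts to which they were assigned may differ, since the gene has several.

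Acta2 had 2 regions of ATAC-seq, which measures how open the chromatin is. The region at -178 bases from the start had a signal of 18.2 in sham, 11.0 after 6-OHDA and 15.0 after NDST3, and the region at -882 bases had 15.2, 8.0 and 11.0. Both were lower after 6-OHDA than in sham, by 1.65-fold and 1.90-fold, short of the 2-fold that 6.87% of all regions reached. Over all regions the median log2 ratio was 0.11. Acta2 RNA was 1.96-fold higher in the same group. The tissue of these assays holds many cell types beside mural cells, and no region of Tagln, Myh11, Cnn1, Tpm2 or Mylk was listed in either table.

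**Figure D5:**
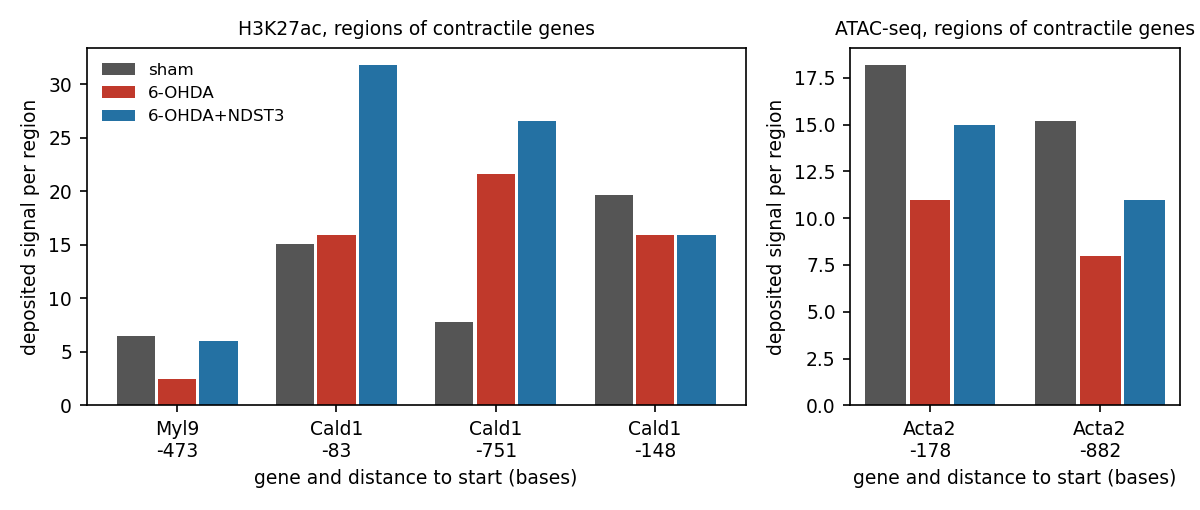
Deposited signal of the H3K27ac regions of Myl9 and Cald1 (left) and of the ATAC-seq regions of Acta2 (right) in sham, 6-OHDA and 6-OHDA with NDST3, 1 value per group and no error. The lowest signals in 6-OHDA are 2.5 for Myl9 and 8.0 for Acta2 at -882 bases.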

How the data were processed

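RNA-seq, CUT&RUN for H3K27ac, ATAC-seq and scRNA-seq tables of mouse brain were used. The authors prepared stranded poly-A libraries, trimmed reads, aligned them to mm10 with HISAT2, and deposited a read count per gene with FPKM and TPM from StringTie. TPM was not used. The authors normalized scRNA-seq with Seurat after Cell Ranger, having removed cells with very many genes or a high mitochondrial share to limit multiplets, and doublets could not be called on cluster means. The deposited cluster means carry a header of mean counts, but fit natural log values of 1 plus a count scaled per cell. The deposited signal per region of CUT&RUN and ATAC-seq was normalized in a way not given in the sources used here, with the 2 CUT&RUN libraries pooled. The 45 ATAC-seq regions without a value in some group were left out.

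The 8 genes and all lists were chosen with earlier results of these data known. Counts of 19300 genes that passed edgeR's default filter (edgeR 4.0.16, R 4.3.3) were fitted with TMM factors and the quasi-likelihood test over all 5 libraries, with Benjamini-Hochberg adjustment and 2 residual degrees of freedom. A standard error is the log2 fold change divided by the square root of F. Libraries held 51003699 to 70533326 counts. The fit was tested on simulated data. Alternatives were other scaling factors, DESeq2 1.42.0, limma 3.58.1 on log2(FPKM + 1) or log2(FPKM + 0.1), other filters, only the groups compared, a replicate block, and leaving out each sham or NDST3-treated library. Genes of the lists were named from the 3 with the largest log2 fold change between 6-OHDA and sham (adjusted p under 0.05, mean CPM of at least 1), the 2 most abundant not called, and related genes beside their member, with the marker lists given mainly as counts. Srf, Myocd, Notch3, Smad3, Rgs5, Mgp, Col1a2, Lmod1 and Des were named after their values were seen. One gene that this rule names is not reported here. Region ratios use a pseudocount of 1 for H3K27ac and none for ATAC-seq, over regions with a signal of at least 1 in some group.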

Additional observations from a re-analysis of the deposited data

Results flagged for a closer look

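In scRNA-seq, Acta2 and Myl9 moved in opposite directions between clusters in which their mean passed 0.1. The NDST3-treated mean of Acta2 minus the 6-OHDA mean was 0.227 in cluster 5 and -0.0417 in cluster 1, in natural-log units. For Myl9 it was 0.0882 in cluster 2 and 0.0318 in cluster 5, but -0.0295 in cluster 7 and -0.111 in cluster 9. Each rests on 1 library per group, and the difference between clusters was not tested.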

How the results depend on the processing

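Across 15 alternatives, each of the 8 contractile genes kept the sign of its log2 fold change in the first 2 comparisons (120 of 120 values each). Against sham, 117 of 120 values after NDST3 kept it. The exceptions were Cald1 without sham replicate 1 (0.28) or without NDST3-treated replicate 1 (0.15) and Mylk without NDST3-treated replicate 1 (0.18). For 6-OHDA against sham, leaving out 1 library gave 0 to 7140 called genes (0 without either sham library) and medians of the contractile genes of 0.92 to 1.35. For NDST3-treated against 6-OHDA it gave 0 to 3163 genes (0 without either sham library, 1 without NDST3-treated replicate 1) and medians of -2.05 to -1.69, and for NDST3-treated against sham 0 to 111 genes (111 without NDST3-treated replicate 1) and medians of -1.23 to -0.91. Where an arm kept 1 library, that library was assumed to vary like the other groups. In the second comparison 0 genes were called by limma on log2(FPKM + 0.1) and 0 with only the groups compared, and 5194 by DESeq2, against 3019 by edgeR. Against sham, edgeR called 0 (2744 at an unadjusted p under 0.05), DESeq2 1023 and the rule of fold and raw p 1131. On log2(FPKM + 1), the medians of the contractile genes were -1.35 and -0.73 in the second comparison and in that with sham.

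Same-numbered libraries of sham and the NDST3-treated group deviated in opposite directions (correlation -0.43), so the numbers were not taken as pairs. With a replicate block, 1796, 0 and 0 genes were called. A crossed block, chosen after seeing the data, called 7444, 4795 and 1194, with a median of 0.88 for the contractile genes in the first comparison.

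In cluster 5, the difference of the mean over the 8 genes was 0.045, 0.019 without Acta2 and 1.87 on back-transformed means. With a floor of 0.05, 20 combinations outside cluster 5 passed in place of 8. For 6-OHDA against sham the median log2 ratio of the H3K27ac regions was -0.11, -0.11 without a pseudocount and -0.22 after division by column totals. For NDST3-treated against sham it was 0.46, 0.48 without a pseudocount and -0.077 after that division, a reversal. The mean over all regions was 25.2 in the NDST3-treated column and 16.7 in sham. As the listed regions hold 1 direction of NDST3-treated against 6-OHDA, nothing is read from either sign. For the Acta2 regions of ATAC-seq, a pseudocount of 1 gave -0.76, 0.42 and -0.35 in the 3 comparisons and the division gave -1.003, 0.33 and -0.67, against -0.83, 0.45 and -0.37. Every region lay within 1000 bases of a start, so promoters alone gave the same values.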
